A study of Mus musculus with 9 samples.

Results

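The complement and coagulation cascades are the protease cascades of plasma. In back skin of mice with dinitrochlorobenzene (DNCB) dermatitis, 84 genes of these cascades were measured, namely every gene whose KEGG annotation in the deposited table of 34637 genes names that pathway. KEGG terms were given for 7161 genes of the table. Of the 84 genes, 68 passed the filter on low counts and could be tested, and 16 could not. Here these 84 genes are called members, whatever their level in skin.

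Complement is a chain of proteases and binding proteins that marks microbes and damaged cells, draws in leukocytes and can open pores in membranes. It starts through C1q bound to antibody, through lectins bound to sugars, or through the alternative pathway built from factor B and factor D, and all of these meet at C3. Coagulation is another chain of proteases that ends in thrombin and fibrin, and the plasminogen system dissolves fibrin again. The liver makes most of these proteins for plasma, while macrophages, fibroblasts, endothelium and keratinocytes are known to make some of them in skin.

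The mice were C57BL/6 males of 6 to 8 weeks. Their backs were shaved over an area of 2 by 2 cm, sensitised on day 1 with 200 µL of 1% DNCB, a small reactive molecule that raises a contact allergy, and challenged from day 4 to day 21 with 100 µL of 0.5% DNCB. After day 7 the FJDHF-M group was fed the Fangji Dihuang formulation, a mixture of plant drugs, by mouth every day until day 28, and the Model group was given the same amount of water. Both groups carry the dermatitis, and skin without DNCB was not analysed here, so the comparison is between inflamed skin with and without the formulation. The question behind the RNA sequencing was which genes and pathways differ after the formulation.

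The tables hold 9 libraries under the codes MR1, MR3, MR3_4, MR4_5 and MR5, and MXL1, MXL12, MXL3_4 and MXL_3. The codes are not explained. Since FJDHF-M has 5 mice and Model has 4, and MX abbreviates the Chinese for model, the 5 MR libraries were read as FJDHF-M and the 4 MXL libraries as Model. Each direction given here rests on that reading. No library could be tied to one mouse, and whether codes with more than one number hold pooled RNA is unknown, so each n counts libraries and p-values measure the spread between libraries. Values per library are listed in the order of the codes above, and "log2 fold change" is FJDHF-M over Model.

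Total counts ran from 75221234 to 77372568 over FJDHF-M and from 74648669 to 79474215 over Model. The summed levels of cell type markers differed widely between libraries. The summed FPKM of 6 skeletal muscle markers was 5489 in MXL_3 and 200.3 in MXL12, against 539 to 3855 in the other libraries. The summed FPKM of 10 neutrophil markers was 770.1 in MXL12 and 24.1 to 211 elsewhere. Summed over 6 keratinocyte markers, the level was 3276 to 6121 FPKM in FJDHF-M and 1224 to 5400 in Model, and all 6 had a positive log2 fold change, 3 of them at an unadjusted p under 0.05. Summed over 7 fibroblast markers it was 2524 to 4609 FPKM in FJDHF-M and 3732 to 5699 in Model, and none of the 7 had a positive log2 fold change, with 1 at an unadjusted p under 0.05. The part of these cells in the members' levels was not tested. No marker list was at 0 as a whole and none of the listed markers was at 0 in every library. In whole skin, fewer cells of a type and less RNA per cell cannot be told apart.

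None of the 68 tested members passed the study's threshold of an adjusted p under 0.05 with a 2-fold change in edgeR's quasi-likelihood test, as did none of the 20817 tested genes (0%). The adjusted p was 1.00 for each member. DESeq2's Wald test also called 0 members, and 2 genes in all. At an unadjusted p under 0.05, edgeR gave 2 members, Vsig4 and F7, which is 2.94% of the tested members against 1.57% of all tested genes. One of them was higher in FJDHF-M (0.773% of all tested genes) and 1 was lower (0.793%). Groups that do not overlap were found for 0 members, against 0.514% of all tested genes.

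The members were divided evenly by sign. Of the 68, 33 had a positive log2 fold change (44.1% of all tested genes), and their median was -0.01 against -0.03 over all tested genes. On the scale of log2(FPKM + 1), 40 of 68 members were positive, beside 53.1% of all genes. A fold of at least 2 in either direction was reached by 5 members, F7, F2rl3, Serpina1c, Cd55b and Vsig4, or 7.35% of the members beside 3.98% of all tested genes. The standard error of the log2 fold change had a median of 0.42 over the members and 0.34 over all tested genes.

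**Figure D1:**
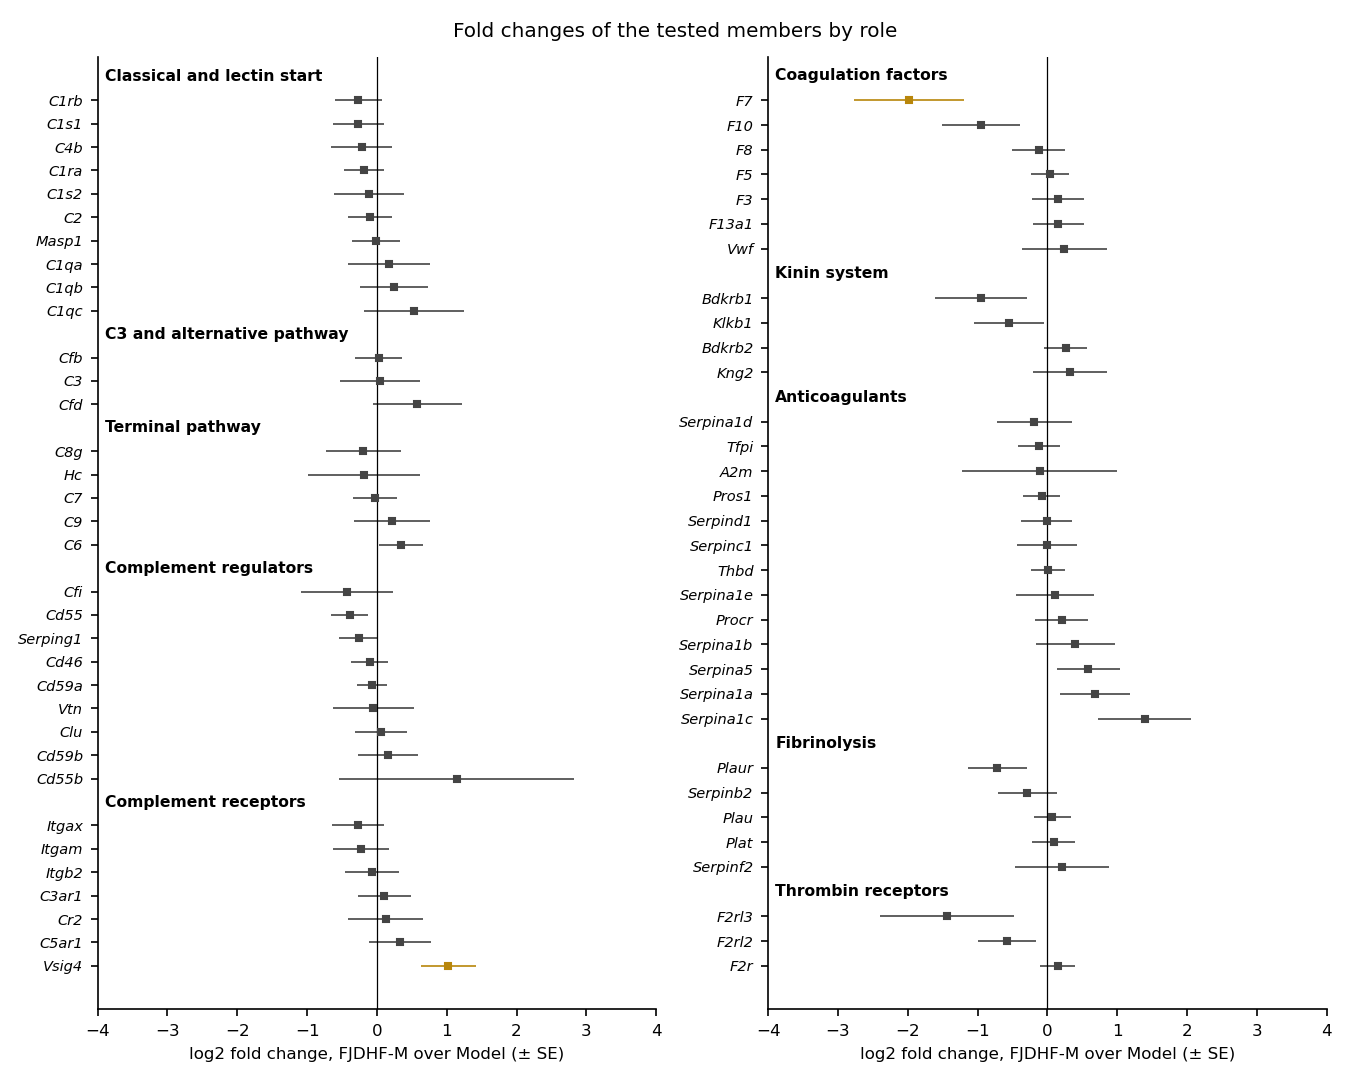
Log2 fold change, FJDHF-M over Model, of 66 tested members, with squares for the estimate and bars for ± 1 standard error from edgeR (5 and 4 libraries), grouped by role in the cascades. The 2 members in gold, Vsig4 at 1.02 and F7 at -1.98, had an unadjusted p under 0.05, and the adjusted p was 1.00 for each.

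Members differed far more in level than between groups. FPKM, in which the authors scaled the read count to transcript length and library depth, allows levels of different genes to be compared. The median over 9 libraries was at least 10 FPKM for 28 members, between 1 and 10 FPKM for 15 and under 1 FPKM for 41. Against the median of all tested genes, 2.51 FPKM, 37 of the 68 tested members (54.4%) lay higher. The 10 members with the highest median held 69.2% of the summed median FPKM, and 8 of them belong to complement.

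From the top, the medians were 239.8 FPKM for Serping1, 174 for C1s1, 163 for Cfd, 122 for C3, 65.8 for C1qb, 63.1 for F13a1, 53.2 for C4b, 50.0 for C7, 48.5 for C1ra and 46.6 for Pros1. Neighbours in this order cannot be ranked, since each of the 19 neighbouring pairs among the 20 highest members overlapped in its range over the 9 libraries. Of the 65 tested members with a value above 0 in every library, 62 had a highest library 2-fold or more above the lowest, and the median ratio of highest to lowest FPKM was 3.93. The other 3, F2rl3, A2m and Cd55b, were at 0 in at least 1 library.

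**Figure D2:**
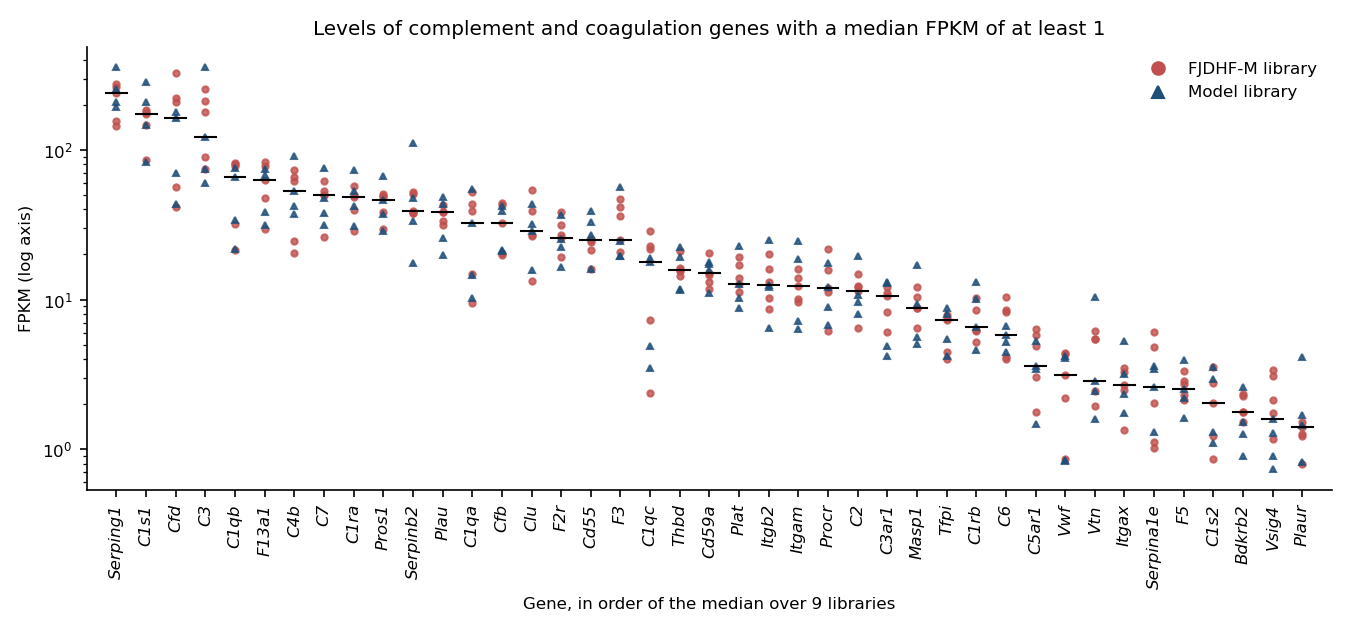
FPKM (log axis) in each of the 9 libraries for 41 members with a median of at least 1 FPKM, ordered by the median (black line), with FJDHF-M libraries as circles and Model libraries as triangles. Circles and triangles are mixed for each gene, and the order runs from Serping1 at 239.8 FPKM to Plaur at 1.41 FPKM.

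C1q, the molecule that recognises antibody on a target, is built from the chains C1qa, C1qb and C1qc, whose genes lie side by side on chromosome 4 and are known as genes of tissue macrophages. The windows from 250 bases before to 50 bases after the start of C1qb and C1qc are shown because the chains moved together over the libraries. Both come from RefSeq on GRCm38.p6, are written 5′ to 3′ along the gene, and lie at chr4:136886151-136886450 (minus strand) for C1qb and chr4:136892865-136893164 (minus strand) for C1qc. Capitals mark GAGGAA, the core that the macrophage factor PU.1 is known to bind, or TTCCTC, the same motif on the other strand.
C1qb: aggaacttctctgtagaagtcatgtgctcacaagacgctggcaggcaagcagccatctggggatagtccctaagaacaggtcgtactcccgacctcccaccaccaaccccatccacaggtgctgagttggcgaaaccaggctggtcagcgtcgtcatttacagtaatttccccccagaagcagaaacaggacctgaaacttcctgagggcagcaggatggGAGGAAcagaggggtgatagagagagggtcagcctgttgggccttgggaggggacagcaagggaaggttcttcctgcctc
C1qc: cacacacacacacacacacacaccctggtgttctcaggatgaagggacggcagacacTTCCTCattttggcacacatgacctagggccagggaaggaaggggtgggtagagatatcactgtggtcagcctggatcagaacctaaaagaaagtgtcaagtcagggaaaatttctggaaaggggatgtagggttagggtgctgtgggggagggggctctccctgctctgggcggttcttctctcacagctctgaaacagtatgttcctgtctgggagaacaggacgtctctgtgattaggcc
The motif stood once in each window, C1qb on the gene's strand and C1qc on the other. It was found on either strand in 28.3% of 32851 windows of this length and in 16 of the 69 windows that matched 64 members (23.2%).

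C1qb was at 81.0, 81.5, 78.2, 32.2 and 21.3 FPKM in FJDHF-M and at 75.2, 34.0, 21.6 and 65.8 FPKM in Model. High libraries (MR1, MR3, MR3_4, MXL1 and MXL_3) and low libraries (MR4_5, MR5, MXL12 and MXL3_4) occurred in both groups, which overlapped fully. C1qa was at 43.3, 52.1, 39.2, 14.9 and 9.55 FPKM in FJDHF-M and at 54.9, 14.6, 10.3 and 32.4 FPKM in Model. C1qc was at 22.6, 28.6, 21.6, 7.31 and 2.36 FPKM in FJDHF-M and at 18.9, 4.88, 3.50 and 17.9 FPKM in Model. The same 5 libraries were the high ones for all 3 chains. The log2 fold changes were 0.17 ± 0.59 (SE) for C1qa, 0.25 ± 0.48 for C1qb and 0.53 ± 0.72 for C1qc, all smaller than their standard errors.

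The ratio of C1qa to C1qb stayed between 0.430 and 0.730, and that of C1qc to C1qb between 0.111 and 0.351 with the lowest value in MR5. Across the same libraries C1qc itself spanned 2.36 to 28.6 FPKM. The summed FPKM of 8 macrophage markers, Lyz2, Cd68 and Csf1r among them, was 1512, 904, 1615, 779 and 1083 in FJDHF-M and 571, 1301, 654 and 1723 in Model. Lyz2 carried most of this sum, with 420.5 FPKM in MXL1, the lowest library, and 1456 FPKM in MXL_3, the highest. Cd68, a protein of macrophage lysosomes, was at 69.4, 41.9, 65.4, 41.2 and 16.7 FPKM in FJDHF-M and at 36.4, 23.3, 16.1 and 55.7 FPKM in Model. For Cd68, as for C1q, MXL1 lay above MXL12, MXL3_4 and MR5. Each of the other markers of this list was lower in MXL1 than in MXL12. Lyz2 was at 420.5 against 1048 FPKM and Csf1r at 23.9 against 26.6 FPKM in these libraries. Of the 8 markers 7 had a positive log2 fold change and 1 an unadjusted p under 0.05, and their part in the C1q levels was not tested.

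The proteases that C1q activates stood at the top of the list. C1s1, the protease that cuts C4 and C2, was at 184, 147, 180.2, 85.0 and 174 FPKM in FJDHF-M and at 82.8, 209, 147 and 285 FPKM in Model. MXL_3 was highest and MXL1 lowest, and the Model range enclosed the FJDHF-M range. C1ra, the protease that activates C1s, was at 28.8 to 57.7 FPKM in FJDHF-M and 31.0 to 73.4 FPKM in Model. The ratio of C1s1 to C1ra lay between 2.67 and 4.39 in all 9 libraries. The log2 fold changes were -0.27 ± 0.36 for C1s1 and -0.18 ± 0.29 for C1ra, and without MXL_3 they were 0.066 and 0.084.

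Near-identical copies limit what can be said of single genes here. The transcripts of C1ra and C1rb were 98.0% identical where aligned, and 40.1% of the 75-base windows of C1ra occurred unchanged in C1rb. For C1s1 and C1s2 identity was 95.9% with 14.7% of windows shared. The reads of the study were longer than these 75-base windows and came from both ends, so the share of reads that fit both copies was not measured. How such reads were counted is not given in the sources used here. C1rb had a median of 6.58 FPKM and C1s2 of 2.03 FPKM, both far under C1ra and C1s1, and their log2 fold changes were -0.27 and -0.11.

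C4b encodes C4, which C1s cuts together with C2 to form the enzyme that acts on C3. C4b was at 65.6, 73.4, 61.7, 20.3 and 24.7 FPKM in FJDHF-M and at 53.2, 42.4, 37.1 and 91.5 FPKM in Model. MXL_3 was the highest and MR4_5 the lowest library, with a log2 fold change of -0.22 ± 0.43. C4a, its neighbour and near copy, lacks the KEGG term in the table and is no member. C2 lay between 6.47 and 19.6 FPKM, and 42.8% of its exonic bases are shared with the read-through gene Gm20547.

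Of the members on the lectin side only Masp1 was tested, with a median of 8.84 FPKM against 2.51 FPKM over all tested genes. Masp1, a protease carried by mannose-binding lectin, was at 5.02 to 17.0 FPKM with its highest value in MXL12, and its log2 fold change was -0.01 ± 0.35. Masp2 had at most 14 counts in a library and shares 54.9% of its exonic bases with Tardbp on the opposite strand. Mbl2, the lectin itself, had 4 counts in MXL_3 and 0 in the other 8 libraries. Over the 12 members that start the classical and lectin pathways, 10 were tested, 3 had a positive and 7 a negative log2 fold change, and the median was -0.11. Their summed FPKM was 386 ± 123 (SD, n = 5) in FJDHF-M and 408 ± 141 (SD, n = 4) in Model, a difference far within the spread of either group.

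C3 is the hinge of the cascade, cut by the enzymes of every starting pathway. It was at 212, 180.1, 254, 74.9 and 90.2 FPKM in FJDHF-M and at 60.1, 122, 74.3 and 358 FPKM in Model. The single library MXL_3 was above every FJDHF-M library while MXL1 and MXL3_4 were below all 5, so the Model group was wider than the FJDHF-M group on both sides. For C3 the log2 fold change was 0.05 ± 0.57. It was 0.93 without MXL_3 (unadjusted p = 0.0700 in edgeR) and -0.23 without MXL1, and it was negative in 6 of the 9 fits that left out a library.

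Cfd encodes factor D, the protease that cuts factor B, and is best known from fat cells. Its level was 221, 209.9, 327, 56.9 and 41.6 FPKM in FJDHF-M and 163, 43.5, 69.7 and 179 FPKM in Model. The highest library was MR3_4 and the lowest MR5, both in FJDHF-M, and the log2 fold change was 0.58 ± 0.64. The summed FPKM of 5 fat cell markers was 260, 157, 418, 80.2 and 92.3 in FJDHF-M and 143, 120, 217 and 205 in Model, also highest in MR3_4. The sums of erythroid cell markers (1141 FPKM) and hepatocyte markers (279 FPKM) were highest in MR3_4 as well. The part of fat cells in the Cfd level was not tested. Cfb, which encodes factor B, was at 20.0 to 44.5 FPKM in FJDHF-M and 21.1 to 42.2 FPKM in Model, nearly the same range, with a log2 fold change of 0.02 ± 0.34. For Cfb 79.5% of the exonic bases are shared with Gm20547, to which 10 counts were given over all libraries against 64480 for Cfb.

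The terminal proteins C5 to C9 build the membrane pore. Among them, C7 was the member at the highest level, at 61.9, 50.0, 53.3, 26.2 and 50.3 FPKM in FJDHF-M and 37.6, 31.6, 48.0 and 75.2 FPKM in Model. MR4_5 was low and MXL_3 high, and the log2 fold change was -0.02 ± 0.31. C6 was at 4.00 to 10.4 FPKM in FJDHF-M and 4.45 to 6.64 FPKM in Model with a log2 fold change of 0.34 ± 0.32. Hc, the gene of C5, had a median of 0.223 FPKM, C9 of 0.397 FPKM and C8g of 0.480 FPKM, while C8a stayed untested with at most 25 counts. By median FPKM, C7 stood far above the other proteins of the pore. C5ar1, the receptor for the C5 fragment, lay between 1.46 and 6.37 FPKM.

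Inhibitors of complement were led by Serping1, which encodes C1 inhibitor, the serpin that stops C1r, C1s and kallikrein. It was at 274, 239.8, 264, 144 and 156 FPKM in FJDHF-M and at 194, 256, 208 and 356 FPKM in Model. MXL_3 was highest again, MR4_5 and MR5 were the lowest, and the groups overlapped. Serping1 had a log2 fold change of -0.26 ± 0.28, which stayed negative in each fit that left out a library, from -0.38 without MXL1 to -0.03 without MXL_3. The ratio of Serping1 to C1s1 ran from 0.897 in MR5 to 2.35 in MXL1.

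Clu, a clusterin that binds the forming pore, was at 26.8, 53.8, 27.1, 39.0 and 13.3 FPKM in FJDHF-M and at 43.7, 15.7, 32.2 and 28.7 FPKM in Model. Both the highest library, MR3, and the lowest, MR5, were FJDHF-M libraries, and the log2 fold change was 0.06 ± 0.38. Cd55, which takes apart the enzymes that cut C3, was at 15.9 to 25.3 FPKM in FJDHF-M and 15.9 to 38.9 FPKM in Model, with a log2 fold change of -0.39 ± 0.26. Cd59a, which blocks the pore, varied least of these, from 11.1 to 20.4 FPKM, with a log2 fold change of -0.07 ± 0.22.

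Both Cd55 and Cd59a have a copy nearby. Cd59b had a median of 0.630 FPKM, and its transcript was 89.9% identical to Cd59a where aligned. Cd55b was at 0.247, 0, 0, 0.161 and 0.301 FPKM in FJDHF-M and at 0, 0.250, 0 and 0 FPKM in Model, and its log2 fold change was 1.14 ± 1.68. Since 5 of 9 libraries had no count for it, this estimate rests on MR1, MR4_5, MR5 and MXL12, and 8.66% of its exonic bases are shared with an antisense gene. Without MXL12 no Model library had a count, and the fitted value of 7.27 (unadjusted p = 0.0246, adjusted p = 1.00 in edgeR) depends on the prior count and is no measure of size. Among the 11 regulators, 10 were tested, 4 were positive and 6 negative, with a median log2 fold change of -0.06.

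Vsig4 encodes CRIg, a receptor of tissue macrophages that binds fragments of C3 and takes up coated particles. Vsig4 was at 3.40, 1.16, 3.10, 1.76 and 2.14 FPKM in FJDHF-M and at 0.894, 1.59, 0.733 and 1.28 FPKM in Model. Of the FJDHF-M libraries 4 were above every Model library, and MR3 lay below MXL12 and MXL_3, so the groups overlapped. The mean was 2.31 ± 0.932 FPKM (SD, n = 5) against 1.12 ± 0.386 FPKM (SD, n = 4). The log2 fold change of 1.02 ± 0.39 had an unadjusted p of 0.0265 and an adjusted p of 1.00 in edgeR's quasi-likelihood test. It lay between 0.82 and 1.23 when single libraries were left out, and the unadjusted p was above 0.05 without MR1 (0.0714), MR3_4 (0.0641), MXL1 (0.0656) or MXL3_4 (0.0726).

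Vsig4 and C1q were not high in the same libraries throughout. MR3 and MXL1 were among the 5 libraries high in C1q, and MR3 had the lowest Vsig4 of the FJDHF-M group, while MXL1 had 0.894 FPKM of it. MR1 and MR3_4 were high in both. The 2 libraries highest in Vsig4, MR1 and MR3_4, were also the 2 FJDHF-M libraries highest in the macrophage marker sum given above, while MXL_3, with the highest marker sum of all, had Vsig4 at 1.28 FPKM. Whether macrophage content takes part in the Vsig4 difference was not tested.

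**Figure D3:**
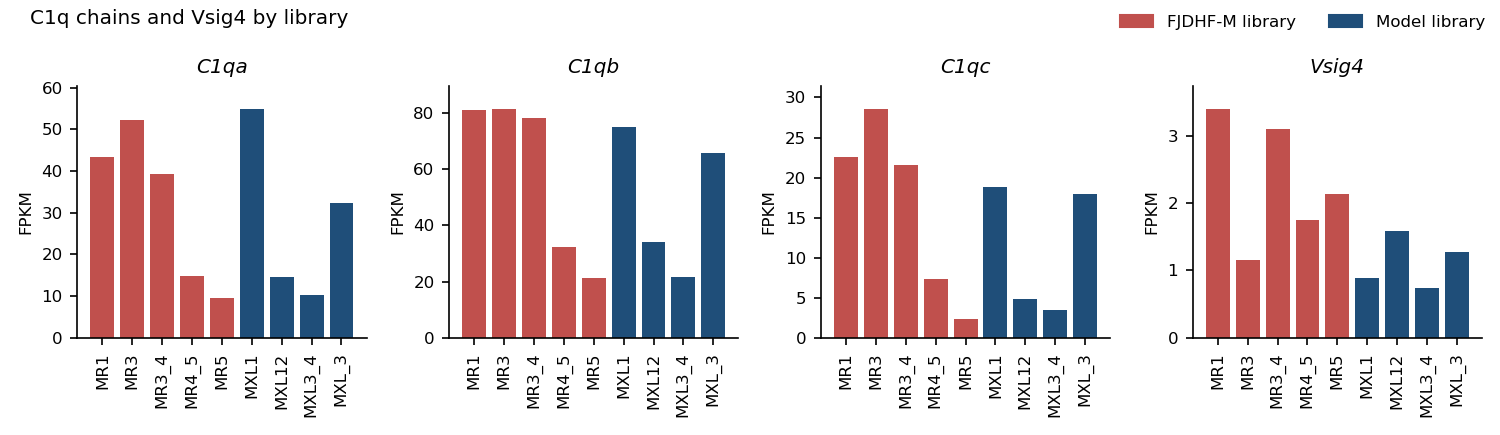
FPKM of C1qa, C1qb, C1qc and Vsig4 in each library, with bars for single FJDHF-M libraries (red) and Model libraries (blue). The C1q chains were high in MR1, MR3, MR3_4, MXL1 and MXL_3, whereas Vsig4 was above 1.59 FPKM in 4 FJDHF-M libraries and in no Model library.

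Of the other complement receptors none had an unadjusted p under 0.05. Itgam and Itgb2 form the receptor CR3 of neutrophils and macrophages. Itgam was at 14.0, 12.3, 15.9, 9.61 and 10.1 FPKM in FJDHF-M and at 7.14, 24.8, 6.40 and 18.7 FPKM in Model. The Model group held the 2 highest and the 2 lowest libraries, MXL12 and MXL_3 on top. Itgam's log2 fold change of -0.23 ± 0.40 became 0.17 without MXL12, the library with the highest neutrophil marker sum. Of Itgam's exonic bases 68.7% are shared with the read-through gene Gm49368. Itgb2, at 6.42 to 25.0 FPKM, had a log2 fold change of -0.07 ± 0.39, which was 0.40 without MXL_3. C3ar1, the receptor for the C3 fragment, had one of 0.11 ± 0.38.

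Coagulation begins when tissue factor (F3) meets factor VII. F3, known from fibroblasts and keratinocytes, was at 35.9, 41.6, 47.1, 20.8 and 24.9 FPKM in FJDHF-M and at 19.4, 24.6, 19.7 and 56.1 FPKM in Model. MXL_3 was highest, and the other 3 Model libraries and MR4_5 were the 4 lowest. Its log2 fold change was 0.15 ± 0.38, and without MXL_3 it was 0.68 (unadjusted p = 0.0444, adjusted p = 1.00 in edgeR). Its inhibitor Tfpi was at 4.01 to 8.80 FPKM, and the ratio of F3 to Tfpi ran from 3.06 in MXL12 to 9.29 in MR3.

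F7, the partner of tissue factor, was far lower, at 0.349, 0.0890, 0.126, 0.143 and 0.193 FPKM in FJDHF-M and 0.551, 0.334, 0.0638 and 1.85 FPKM in Model. In counts this is 52, 14, 19, 22 and 29 against 84, 50, 10 and 273. The Model group held the 2 highest libraries, MXL_3 and MXL1, and also the lowest of all, MXL3_4. The log2 fold change of -1.98 ± 0.79 had an unadjusted p of 0.0301 and an adjusted p of 1.00 in edgeR's test. Without MXL_3 it was -0.80 (unadjusted p = 0.270), so MXL_3 decides its size. The unadjusted p was also above 0.05 without MR3 (0.0605), MR3_4 (0.0604), MR4_5 (0.0595) or MR5 (0.0517).

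F10, the factor X gene that lies next to F7 on chromosome 8, showed the same library on top. It was at 0.375, 0.486, 0.625, 0.536 and 0.526 FPKM in FJDHF-M and at 0.379, 0.950, 0.258 and 2.23 FPKM in Model. MXL_3 and MXL12 were above all FJDHF-M libraries and MXL3_4 was below them. A log2 fold change of -0.95 ± 0.56 for F10 became -0.07 without MXL_3. Beside F7 and F10, MXL_3 also had the highest sums of skeletal muscle markers (5489 FPKM) and of 6 endothelium markers (128 FPKM, against 61.3 to 97.2 elsewhere). Its sum of 8 macrophage markers was the highest too (1723 FPKM, against 571 to 1615 elsewhere). The part of these tissues and cells was not tested.

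F13a1, the transglutaminase subunit that crosslinks fibrin and is known from dermal macrophages, was the coagulation factor at the highest level. It was at 78.4, 63.1, 82.5, 29.7 and 47.6 FPKM in FJDHF-M and at 31.5, 67.6, 38.2 and 75.0 FPKM in Model, fully overlapping, with a log2 fold change of 0.16 ± 0.36. Vwf, the von Willebrand factor of endothelium and platelets, lay between 0.837 and 4.43 FPKM and had a log2 fold change of 0.24 ± 0.60. F5 had a log2 fold change of 0.03 ± 0.27.

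**Figure D4:**
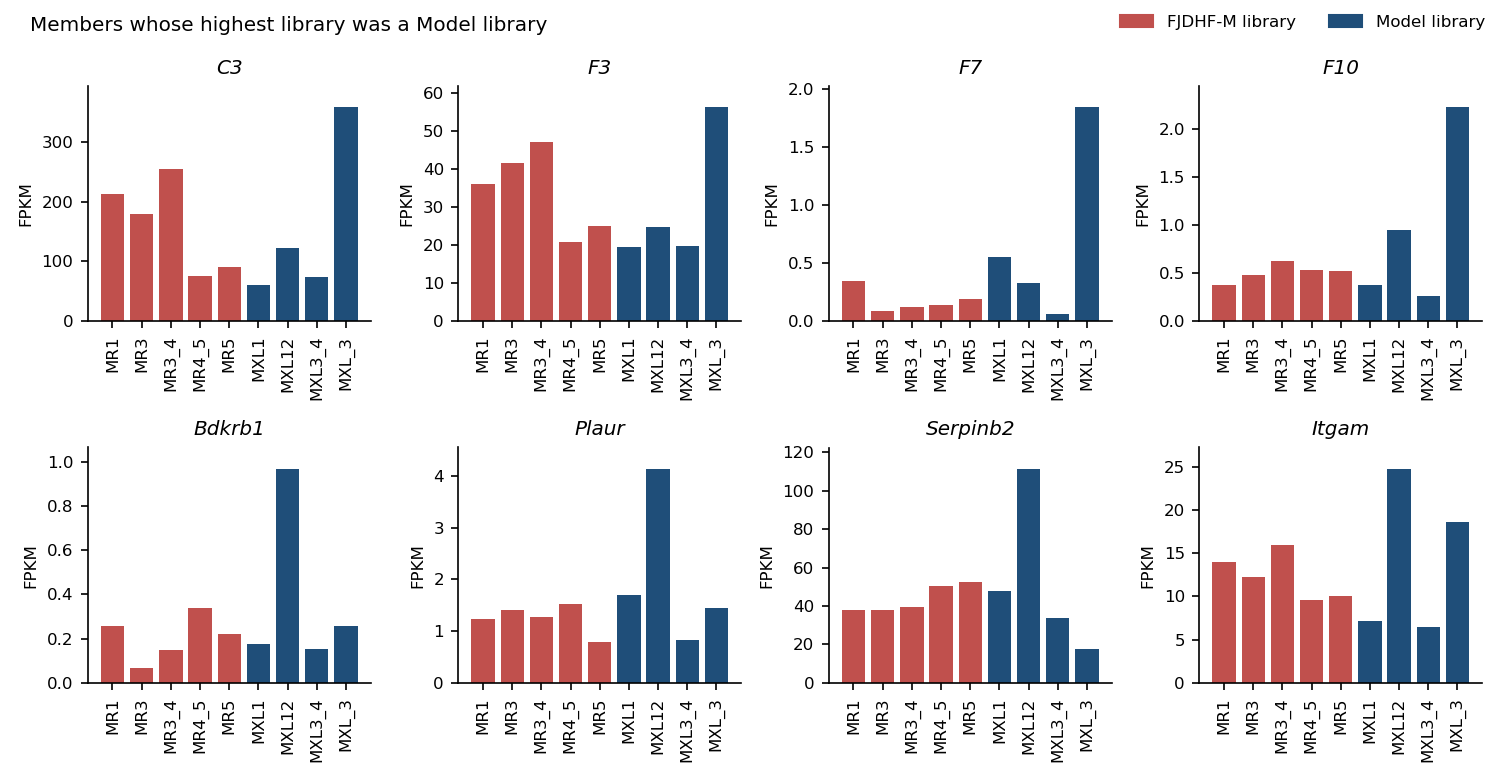
FPKM of 8 members in each library, with bars for single FJDHF-M libraries (red) and Model libraries (blue), for genes whose highest library belonged to the Model group. MXL_3 was highest for C3, F3, F7 and F10, with C3 at 358 FPKM, and MXL12 was highest for Bdkrb1, Plaur, Serpinb2 and Itgam, with Serpinb2 at 111 FPKM.

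The fibrin chain genes and the other plasma factors of the liver were near or under the limit of detection. Fga, Fgb and Fgg had at most 16, 19 and 33 counts in a library, F9 at most 31 and F12 at most 8. F2, the prothrombin gene, had 37 counts in MR3, 27 in MR5 and 0 in the other 7 libraries. Kng1, the kininogen gene, had 45 counts in MR3, 24 in MR4_5 and 31 in MR5, 8 in MXL3_4 and 0 elsewhere. Plg, the plasminogen gene, had 32 counts in MR1, 15 in MXL_3 and 0 elsewhere. C4bp, which encodes an inhibitor that binds C4, had 32, 5, 20 and 18 counts in MR3, MR3_4, MR4_5 and MR5, 8 in MXL12 and 0 elsewhere. Most counts of F2, Kng1 and C4bp lay in FJDHF-M libraries, MR3 was the highest library for each, and MR5 held counts of all 3. This did not hold across the 16 untested members. Fga, Fgb and Fgg were highest in MR5, with 6, 6 and 0 counts in MR3. F12 and Mbl2 had counts only in Model, and C8a, Itgb2l and Masp2 were highest in a Model library. F9, Plg and Cpb2 were highest in MR1, and Proc and Zp3r in MR3_4. Cpb2, an inhibitor of fibrinolysis, had at most 9 counts, the integrin gene Itgb2l at most 22 and Zp3r, a sperm protein related to C4bp, at most 2.

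Each of the 16 untested members had a count of 0 in at least 1 library and none exceeded 45 counts. A count of 0 allows up to 3 counts, or 0.0375 to 0.0415 CPM (the count scaled to library size) at these depths, for counting error only. No fold was computed for them. Alb, the albumin gene of hepatocytes, was picked after its values were seen. It was at 5.15 FPKM in MR3 and 5.32 FPKM in MR5 and at 0.853 to 1.37 FPKM in the other libraries. The sum of the whole list of 7 hepatocyte markers was 26.8 to 279 FPKM in FJDHF-M and 34.6 to 133 FPKM in Model, with the highest value in MR3_4, but nearly all of it was Cyp2e1, at 24.8 to 271 FPKM. Ahsg, a plasma protein gene of hepatocytes, was also highest in MR3 and MR5, at 0.563 and 0.467 FPKM. Ttr was highest in MXL3_4, at 7.83 FPKM, with 7.79 FPKM in MR5 and 0.427 FPKM in MR3. The markers of that list not named here were highest in MR3_4 or MR4_5, not in MR3 or MR5. The part of liver-type transcripts in MR3 and MR5 was not tested.

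Kinins are peptides cut from kininogen that dilate vessels and cause pain and itch through the receptors B1 and B2. Bdkrb1, the inducible B1 receptor, was at 0.258, 0.0681, 0.146, 0.337 and 0.222 FPKM in FJDHF-M and at 0.176, 0.967, 0.154 and 0.256 FPKM in Model. MXL12 was the only high library, and the log2 fold change of -0.95 ± 0.66 was 0.02 without it. Bdkrb2, the constitutive B2 receptor, was at 1.52 to 2.32 FPKM in FJDHF-M and 0.897 to 2.62 FPKM in Model, with a log2 fold change of 0.26 ± 0.31. Kng2, a copy of Kng1 with 93.5% identity where aligned, had a median of 0.473 FPKM and a log2 fold change of 0.32 ± 0.53.

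Of the brakes on coagulation, Pros1, Thbd and Procr had a median FPKM above 10, and 9 of the class had one under 1. Pros1 encodes protein S, the cofactor of activated protein C. Pros1 was at 48.9, 38.4, 48.7, 29.4 and 50.4 FPKM in FJDHF-M and at 28.9, 67.0, 37.0 and 46.6 FPKM in Model. MXL12 was highest and MXL1 lowest, and the log2 fold change was -0.08 ± 0.27. Thbd, the thrombomodulin gene, lay within 11.6 to 22.4 FPKM in all libraries with a log2 fold change of 0.01 ± 0.24. Of the 14 members in this class, which counts plasma protease inhibitors too, 13 were tested, 7 positive and 6 negative, and the median was 0.01. Proc, the protein C gene, was not testable, with at most 6 counts.

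The class also holds 5 copies of Serpina1, the gene of alpha-1-antitrypsin, which is known as an inhibitor of neutrophil elastase. Whether each copy inhibits that protease was not tested. The copies lie in a row on chromosome 12, on the minus strand, and their coding sequences of 1239 bases differ at 86 positions. A stretch of 120 coding bases (bases 1091 to 1210 from the start of translation, GRCm38) is shown because it holds the loop that faces the target protease and 22 of those positions, which stand in capitals. The stretches lie at chr12:103853707-103853826 for Serpina1a, chr12:103728274-103728393 for Serpina1b, chr12:103895044-103895163 for Serpina1c, chr12:103763712-103763831 for Serpina1d and chr12:103947050-103947169 for Serpina1e.
Serpina1a: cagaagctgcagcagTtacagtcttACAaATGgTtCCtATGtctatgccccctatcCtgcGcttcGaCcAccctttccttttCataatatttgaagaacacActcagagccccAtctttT
Serpina1b: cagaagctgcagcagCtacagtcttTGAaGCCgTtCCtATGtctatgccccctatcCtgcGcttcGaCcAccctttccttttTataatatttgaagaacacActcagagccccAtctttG
Serpina1c: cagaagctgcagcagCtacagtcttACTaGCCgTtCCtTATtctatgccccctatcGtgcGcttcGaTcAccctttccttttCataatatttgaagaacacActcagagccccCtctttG
Serpina1d: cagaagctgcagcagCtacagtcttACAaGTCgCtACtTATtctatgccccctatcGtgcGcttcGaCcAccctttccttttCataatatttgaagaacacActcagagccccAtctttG
Serpina1e: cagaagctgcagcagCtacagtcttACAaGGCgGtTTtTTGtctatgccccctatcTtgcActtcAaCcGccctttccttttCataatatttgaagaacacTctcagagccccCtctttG
Between these clusters of capitals the 5 sequences are identical, and of the 75-base windows of the Serpina1a transcript 51.8% occurred unchanged in Serpina1c and 19.0% in Serpina1e. Reads that lie wholly in shared stretches cannot be placed on a single copy. The reads of the study were longer than 75 bases and came from both ends, so the share of such reads is not known. The levels of single copies are uncertain to that extent.

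Serpina1e was the copy at the highest level, at 2.04, 6.10, 1.02, 4.84 and 1.12 FPKM in FJDHF-M and 3.43, 2.59, 3.59 and 1.29 FPKM in Model, with a log2 fold change of 0.11 ± 0.55. Serpina1c was at 0.0808, 0.599, 0.0915, 0.149 and 0.367 FPKM in FJDHF-M and at 0.0843, 0.0816, 0.0942 and 0.106 FPKM in Model. MR3 and MR5 were the high libraries, and the other FJDHF-M libraries except MR4_5 lay within the Model range or below it. The log2 fold change was 1.40 ± 0.66 with an unadjusted p of 0.0612 and an adjusted p of 1.00 in edgeR's test, and it was 0.84 without MR3. For Serpina1c 31.5% of the exonic bases are shared with an antisense gene that has 998 counts over the libraries against its own 186. The log2 fold changes of Serpina1a, Serpina1b and Serpina1d were 0.68, 0.40 and -0.18.

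In the plasminogen system the activators and Serpinb2 had the highest levels. Plau, the gene of urokinase, was at 42.6, 31.4, 38.4, 33.3 and 38.6 FPKM in FJDHF-M and at 20.0, 43.3, 25.9 and 48.3 FPKM in Model. The FJDHF-M libraries lay close together inside the wider Model range, and the log2 fold change was 0.07 ± 0.27. Plat, the tissue activator, had a log2 fold change of 0.09 ± 0.30. Serpinb2, an inhibitor of urokinase known from keratinocytes and macrophages, was at 37.7, 38.1, 39.3, 50.6 and 52.4 FPKM in FJDHF-M and at 47.6, 111, 33.5 and 17.4 FPKM in Model. MXL12 was the highest and MXL_3 the lowest library, and the log2 fold change was -0.29 ± 0.42, or 0.39 without MXL12. Of its exonic bases 12.4% are shared with Serpinb10 on the same strand.

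Plaur, the urokinase receptor, also had MXL12 as its high library, at 1.23, 1.41, 1.27, 1.51 and 0.797 FPKM in FJDHF-M and 1.69, 4.14, 0.820 and 1.45 FPKM in Model. Its log2 fold change was -0.72 ± 0.42 and was -0.11 without MXL12. The neutrophil marker sum of MXL12, given above, was the highest as well, all 10 neutrophil markers had a negative log2 fold change and 2 of them an unadjusted p under 0.05. Whether neutrophil content takes part in the Plaur level was not tested. As a sum, the 8 members of fibrinolysis were at 99.6 ± 7.37 FPKM (SD, n = 5) in FJDHF-M and 108 ± 54.5 FPKM (SD, n = 4) in Model, with 189 FPKM in MXL12.

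Thrombin acts on cells through the receptors of the PAR family. F2r, the main thrombin receptor, was at 31.5, 19.3, 25.7, 27.0 and 38.7 FPKM in FJDHF-M and at 22.4, 36.7, 25.3 and 16.5 FPKM in Model, overlapping, with a log2 fold change of 0.15 ± 0.25. F2rl2 had a log2 fold change of -0.58 ± 0.42. F2rl3, a receptor known from platelets, had 13, 0, 2, 4 and 11 counts in FJDHF-M and 15, 6, 7 and 36 in Model, with a log2 fold change of -1.44 ± 0.96 that was -0.61 without MXL_3. These are too few counts for a precise value.

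Of the other tested members, those given next had log2 fold changes from -0.55 (Klkb1) to 0.59 (Serpina5). Factor I (Cfi), the protease that destroys C3b and C4b, had a log2 fold change of -0.43 ± 0.66, and vitronectin (Vtn), which binds the forming pore, one of -0.05 ± 0.58. Among receptors, the log2 fold change was -0.27 for Itgax, 0.12 for Cr2 and 0.33 for C5ar1. Among coagulation inhibitors it was -0.01 for Serpinc1, the antithrombin gene, -0.01 for Serpind1, 0.20 for Procr, the receptor of protein C, and 0.59 for Serpina5. Serpinc1 shares 34.4% of its exonic bases with Zbtb37 on the opposite strand, which has 18464 counts against its own 337. F8, the gene of factor VIII, was at -0.12, the prekallikrein gene Klkb1 at -0.55, the plasmin inhibitor gene Serpinf2 at 0.21 and the membrane regulator Cd46 at -0.11 on the log2 scale, and each of these values was within 1.5 standard errors of 0.

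Seen by library rather than by group, the tested members gathered in MXL_3. That library held the highest CPM for 26 of the 68 (38.2%), against 15.5% of all tested genes. MXL12 was highest for 13 members (19.1% against 14.5%). In contrast, MXL1 was highest for 2 (2.94% against 16.9%), MXL3_4 for 0 (10.9% of all tested genes) and MR4_5 for 1 (1.47% against 7.01%). The other FJDHF-M libraries were close to all genes, with 8 members for MR5 (11.8% against 12%) and 6 each, or 8.82%, for MR1, MR3 and MR3_4 (7.05%, 7.67% and 8.52% of all tested genes). MR4_5 held the lowest value for 14 members (20.6% against 9.22%), MXL1 for 12 (17.6% against 14.1%), MXL3_4 for 11 (16.2% against 6.64%) and MR5 for 10 (14.7% against 15%). The lowest value lay in MR3 for 7 members (10.3% against 11.7%), in MXL12 for 6 (8.82% against 14.1%), in MXL_3 for 5 (7.35% against 13.3%), in MR1 for 2 (2.94% against 7.49%) and in MR3_4 for 1 (1.47% against 8.45%). So the Model group held both the library richest in these transcripts and some of the poorest, and without MXL_3 50 of 68 members were positive (47.1% of all genes) while without MXL1 23 of 68 were (47.2%).

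**Figure D5:**
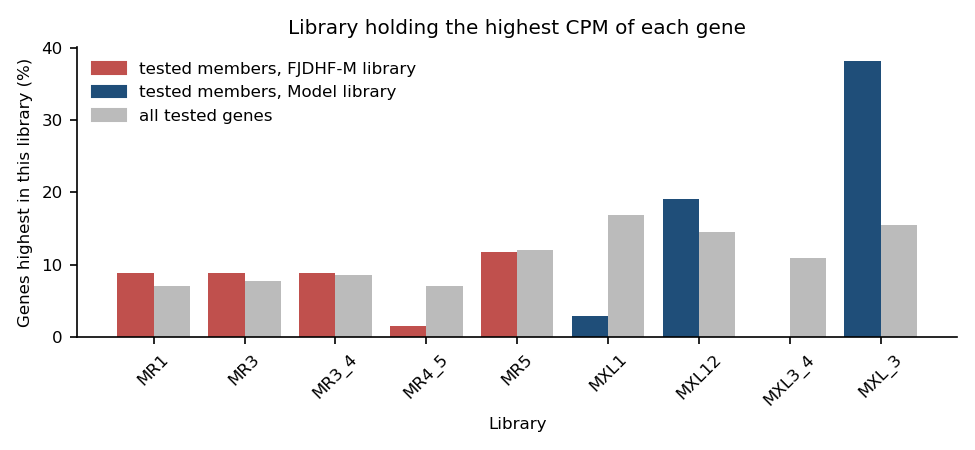
Percent of genes whose highest CPM of the 9 libraries lay in each library, for the 68 tested members (red for FJDHF-M libraries, blue for Model libraries) beside all 20817 tested genes (grey). MXL_3 held 38.2% of the members against 15.5% of all genes, and MXL3_4 held 0 members.

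The 6 members highest in MXL_3 that start the classical and lectin pathways, 4 regulators, 4 coagulation factors, 3 terminal members and 3 receptors made up most of the 26, and the kinin class had 0. For MXL12, 3 of the 13 were kinin members and 3 were members of fibrinolysis. Members are genes of the same 9 libraries and are not independent of each other, so these counts describe single libraries and not the treatment.

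Genes of the cascades that lack the KEGG term were listed apart. Of 29 such genes 28 were in the table and 25 were tested. None passed the threshold (0% of all tested genes) and none had an unadjusted p under 0.05 in edgeR (1.57% of all tested genes), with 5 positive and 20 negative log2 fold changes and a median of -0.12. Fcna, a ficolin of macrophages that binds sugars, was at 12.9, 11.4, 14.9, 3.47 and 2.66 FPKM in FJDHF-M and at 4.22, 4.29, 1.64 and 7.58 FPKM in Model. MR1, MR3 and MR3_4 were above every Model library and MR4_5 and MR5 were below most of them, with a log2 fold change of 1.01 ± 0.60 (unadjusted p = 0.119). Tfpi2, an inhibitor of plasmin and factor VII, had a log2 fold change of -0.66 ± 0.36 with its highest value, 20.3 FPKM, in MXL12.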

How the data were processed

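Polyadenylated RNA of mouse back skin was sequenced from both ends as strand-marked libraries. The authors deposited whole-number read counts per gene without normalization for 55401 genes, and FPKM values with gene annotation for 34637 genes. The FPKM table has 9 further columns of per-library values, headed as counts, which were not used. The submitters' processing notes list HISAT, StringTie, DESeq2 and the build mm10. How reads were assigned to genes, and whether strand was used, is not given in the sources used here. None of the 36 pairs of libraries agreed within counting error (chi-square per degree of freedom 126 to 587).

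Differences were tested on the counts with edgeR 4.0.16 under R 4.3.3 (quasi-likelihood test without covariates, TMM scaling, filterByExpr), with Benjamini-Hochberg adjustment over 20817 genes. Standard errors were taken from the F statistic. A 2-fold change with an adjusted p under 0.05 is the study's criterion. Fits were tested on simulated data. Alternatives were DESeq2 1.42.0 (size factors and Wald test), limma 3.58.1 on log2(FPKM + 1) and log2(FPKM + 0.1), no filter on low counts, 10 counts in every library, leaving out each library, and a replicate block. Positions and overlaps come from GENCODE M21 on GRCm38, in which 73 of the 84 members had the same start and end. Transcripts were aligned with Biopython 1.88, and figures drawn with matplotlib 3.10.9. Floors cover counting error only, and standard errors the spread between libraries.

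The members, roles and lists were chosen with earlier results of these data known. Genes were named if they had an unadjusted p under 0.05, one of the 10 largest log2 fold changes, one of the 2 highest median FPKM of their role, a library apart from its group, or a near-identical copy. Other members named in the text were chosen after their values were seen. Some members and one marker are not reported here by name, and remain in the fits, counts and sums.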

Additional observations from a re-analysis of the deposited data

Results flagged for a closer look

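Single libraries apart from their group were looked for in the 68 tested members with Dixon's test on log2(CPM + 0.5), which gave 136 comparisons over the FJDHF-M and Model libraries. Chance flags about 1 in 20 groups, or 6.8 of these, and 4 passed its 95% critical value. C7, of the membrane pore, was low in MR4_5 (26.2 FPKM, the other 4 of its group 50.0 to 61.9, Dixon ratio 0.713). Plaur, the urokinase receptor, was low in MR5 (0.797 FPKM against 1.23 to 1.51, ratio 0.736). A2m, a broad protease inhibitor of plasma, had 40 counts in MXL_3, against 4, 5 and 0 in MXL1, MXL12 and MXL3_4 (ratio 0.833). Cd55b had 34 counts in MXL12 and 0 in each of the other Model libraries (ratio 1.00).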

How the results depend on the processing

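In each of the 16 alternatives 0 members passed the threshold, and the smallest adjusted p of a named gene was 0.857. Members with an unadjusted p under 0.05 numbered 2, and 1 to 5 when a library was left out (1 without MR3, MR4_5 or MR5, and 5 without MXL12). They numbered 1 with limma at either pseudocount (Vsig4) and 3 with DESeq2's Wald test. Positive members numbered 33, and 23 (without MXL1) to 50 (without MXL_3) of 68 when a library was left out. Of 31 named genes tested for this, 15 kept their sign in every alternative and 5 changed it only when a library was left out.

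The replicate block used the numbers 1, 3 and 3_4 that the codes share. Deviations correlated at 0.22, 0.12 and -0.22, and 1 of 6 libraries matched its own number best. So few shared numbers cannot decide whether the numbers pair the libraries. MR4_5, MR5 and MXL12 each stood alone in their block and so add nothing to the group difference of that fit. With the block 1 member (Cd55b) had an unadjusted p under 0.05 in edgeR, and 48 of 68 were positive. The Cd55b log2 fold change of 6.23 rests on the counts of MR1 alone and is no measure of size. With the block the log2 fold change reversed to 0.18 for C1ra, 0.16 for C1s1, 0.085 for C7, -0.030 for Clu and 0.57 for Itgam. It also reversed to 0.39 for Itgb2, 0.030 for Plaur, 0.28 for Pros1, 0.33 for Serpinb2 and 0.085 for Serping1. With limma on log2(FPKM + 1) it reversed to 0.030 for C7, 0.050 for Itgb2 and 0.033 for Serpinb2, and with a pseudocount of 0.1 to 0.031 for C7, 0.011 for Itgam, 0.060 for Itgb2 and 0.040 for Serpinb2. DESeq2's size factors and its Wald test gave -0.0040 for Thbd. The cause of these reversals was not tested.

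Leaving out a library gave log2 fold changes with a reversed sign for 14 genes. They ran from -1.21 to 0.023 for Bdkrb1, -0.37 to 0.084 for C1ra, -0.51 to 0.066 for C1s1, -0.23 to 0.93 for C3, -0.18 to 0.30 for C7, -0.22 to 0.27 for Clu, -0.035 to 0.39 for F13a1, -0.020 to 0.68 for F3, -0.47 to 0.17 for Itgam, -0.30 to 0.40 for Itgb2, -0.13 to 0.30 for Plau, -0.25 to 0.17 for Pros1, -0.57 to 0.39 for Serpinb2 and -0.14 to 0.19 for Thbd. The groups held 5 and 4 libraries, and the common biological coefficient of variation over all tested genes was 0.477. What set the width of the standard errors was not tested.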
